A study of Caenorhabditis elegans with 8 samples.

Results

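The aspartyl protease genes of Caenorhabditis elegans named asp were followed in whole young adults in which the gene rege-1 was targeted by RNA interference (RNAi). The set comprised 10 named genes, taken by their WormBase symbols, of 20182 genes in the tables. Of these, 9 were found: asp-1, asp-2, asp-3, asp-4, asp-5, asp-6, asp-8, asp-12 and asp-13. No identifier was found for asp-10 in the annotation used, and it is not analysed here. A further 8 genes named asp were outside the set and are described after it.

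The study compared 4 groups of 2 libraries each. Worms of the laboratory wild type N2 received a mock RNAi or RNAi against rege-1, and so did worms of the glp-1 (e2141) strain. RNAi was delivered by feeding double-stranded RNA from the first larval stage, and RNA was taken from whole animals as total RNA. The glp-1 animals were raised at 25 °C, and no temperature is given for N2, so that strain and temperature cannot be told apart. The e2141 allele is temperature-sensitive and affects a Notch receptor that maintains dividing germ cells. The labels do not state that the libraries of a group came from separate cultures, and p-values measure the spread between these libraries, which may be technical.

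Aspartyl proteases of the cathepsin D and pepsin type cut proteins in acid surroundings with a pair of aspartate residues in the active site. They are made as inactive precursors, and they work in lysosomes or are secreted into the gut. In C. elegans, ASP-1 is known as a protease of intestinal cells, and ASP-3 and ASP-4 as proteases required when neurons die by necrosis. The lysosomal proton pump, the V-ATPase, supplies the acid in which such enzymes are active.

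Libraries held 26127079 to 30093967 mRNA counts and 464385 to 684124 intron counts. The count of rege-1 mRNA was 396 and 354 in N2 mock and 2664 and 2137 in N2 RNAi. It was 495 and 480 in glp-1 mock and 1950 and 1891 in glp-1 RNAi. Reads counted for the targeted gene were thus higher, not lower, in the libraries labelled RNAi. The log2 change of rege-1 mRNA counts was 2.70 (SE 0.15) in N2 and 2.11 (SE 0.15) in glp-1. Its intron counts were 15 and 15 in N2 mock, 4166 and 3265 in N2 RNAi, 40 and 25 in glp-1 mock and 240 and 296 in glp-1 RNAi. The log2 change of rege-1 introns was 7.91 (SE 0.44, edgeR adjusted p = 1.25e-10) in N2 and 3.18 (SE 0.36, edgeR adjusted p = 2.69e-05) in glp-1. Its mRNA change beyond introns was -5.23 (SE 0.34, edgeR adjusted p = 1.20e-06) in N2 and -1.08 (SE 0.32, edgeR adjusted p = 0.735) in glp-1. In N2 RNAi the intron counts of rege-1 were above its mRNA counts. The cause was not tested, nor was whether these reads came from the gene's own RNA or from the fed double-stranded RNA. Every direction given here rests on the labels. The 22 germline markers summed to 5439 to 6726 CPM in N2 mock and to 4665 to 4851 CPM in glp-1 mock, with 0 markers at a count of 0, so germline mRNA was not absent from the glp-1 libraries. CPM are counts scaled to a common library total.

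The 9 genes differed widely in level under mock treatment, from 4.99 CPM for asp-12 to 922 CPM for asp-1 in single libraries, and the highest level after RNAi was 6899 CPM, of asp-3. To compare genes with each other, CPM were divided by the deposited coding length (RPKM). In N2 mock, asp-1 was highest at 693 ± 114 RPKM (SD, n = 2), followed by asp-3 at 651 ± 130.1 and asp-6 at 519 ± 116. The libraries of these 3 genes overlapped between neighbours in the order. Below them, without overlap between neighbours, came asp-5 at 329 ± 22.4 RPKM, asp-2 at 277 ± 10.6, asp-4 at 266 ± 2.54, asp-13 at 64.8 ± 1.91, asp-8 at 15.4 ± 4.59 and asp-12 at 8.94 ± 0.241 RPKM. The coding and intron lengths deposited for asp-2, 1908 and 2898 bases, exceed its span of 1658 bases in WBcel235. Those of asp-8 came together to 3588 bases, above its span of 3383 bases. A larger gene model was thus counted for both, and their levels per length are uncertain. Which other genes these larger models overlap is not known. For asp-12 the 2 lengths came to 1304 bases, well below its span of 2847 bases, so part of its span was not counted.

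The order changed under RNAi. In N2 RNAi, asp-3 was first at 5435 ± 465 RPKM, followed by asp-6 at 3610.5 ± 139 and asp-1 at 3526 ± 26.7, and the last 2 overlapped. The gene asp-12 moved from the last place to the fourth, at 2401 ± 795 RPKM, above asp-2 at 1547 ± 158 and asp-5 at 1357 ± 122, which overlapped each other. At the bottom were asp-4 at 130.7 ± 16.7 RPKM, asp-8 at 28.6 ± 5.89 and asp-13 at 24.4 ± 7.15, with overlap between asp-8 and asp-13. Among all 20182 genes, the mean RPKM of asp-3 ranked 171 in N2 mock and 3 in N2 RNAi, and that of asp-12 ranked 8210 and 34.

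In the glp-1 strain, asp-6 at 686 ± 40.2 RPKM and asp-3 at 672 ± 57.6 overlapped at the top under mock. They were followed without overlap by asp-1 at 584 ± 45.4, asp-5 at 438 ± 30.9, asp-2 at 334 ± 2.66, asp-4 at 288 ± 0.108, asp-13 at 208 ± 0.269, asp-8 at 11.6 ± 0.367 and, again last, asp-12 at 4.74 ± 0.760 RPKM. Under RNAi asp-3 at 3704 ± 515 RPKM, asp-1 at 3403 ± 245 and asp-6 at 3129.6 ± 146 stood first, each overlapping its neighbour. They were followed without overlap by asp-2 at 1540.2 ± 85.7, asp-5 at 1253 ± 43.8, asp-12 at 419.6 ± 3.498, asp-4 at 227 ± 14.96, asp-13 at 110.1 ± 1.97 and asp-8 at 26.5 ± 0.225 RPKM. The place of asp-12 was therefore 4 in N2 RNAi and 6 in glp-1 RNAi.

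**Figure D1:**
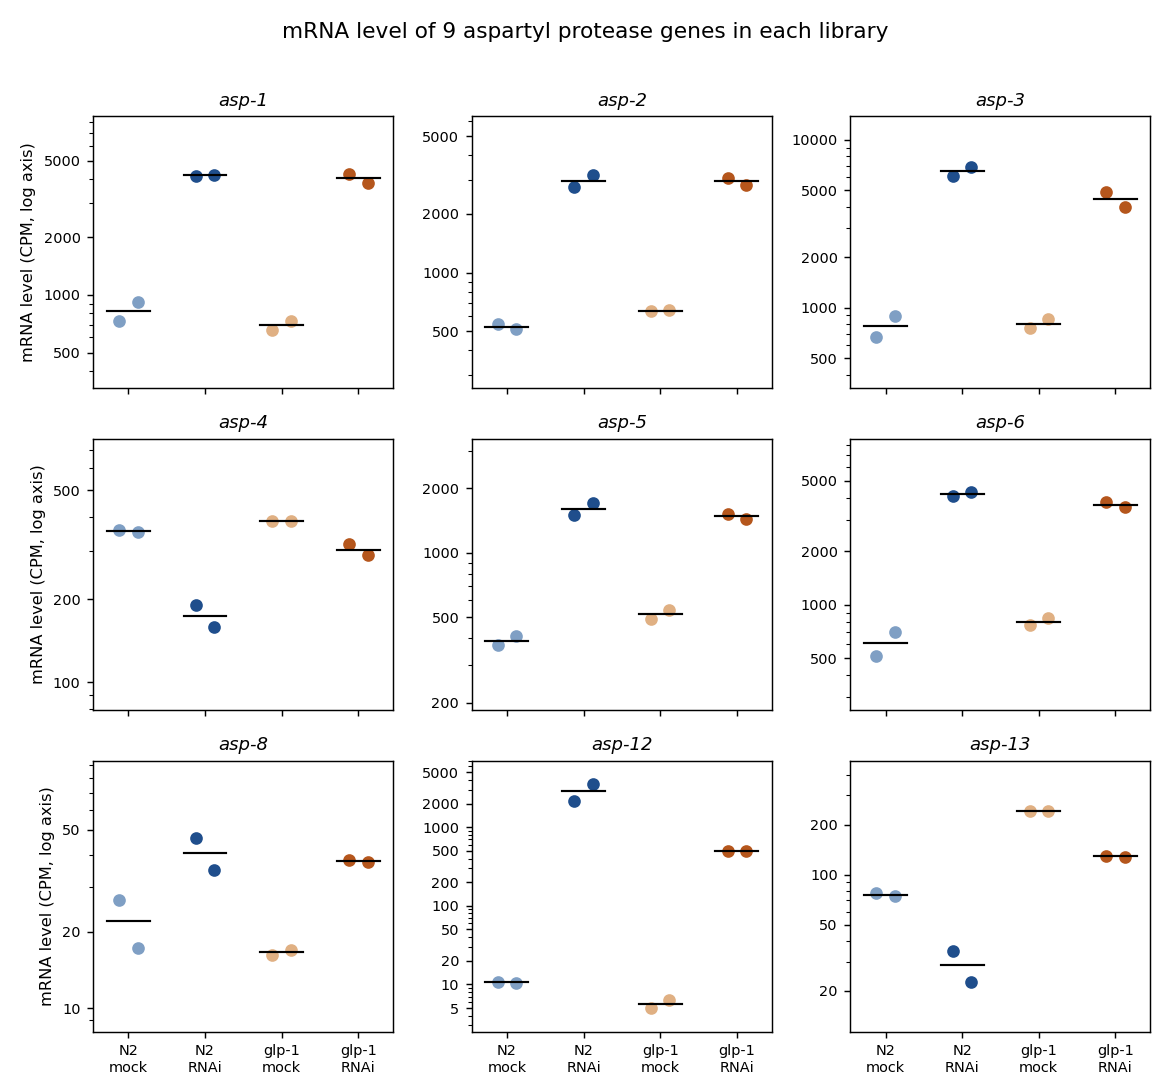
mRNA level of each of the 9 genes in the 8 libraries, in CPM on a log axis. Points are libraries and horizontal lines are group means (n = 2). Under rege-1 RNAi 7 genes lie above the mock libraries of the same strain, and asp-4 and asp-13 lie below them. With 2 libraries per group, genes can separate like this without a change, and the share of all genes that did so was not counted.

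RNAi against rege-1 was compared with mock in N2 first. All 9 genes passed edgeR's quasi-likelihood test at an adjusted p below 0.05, 7 with a rise and 2 with a fall. Over all 15321 genes tested, 4.79% were called, 3.13% higher and 1.66% lower. The median log2 change was 2.35 over the 9 genes and -0.01 over all genes. All 9 genes passed the filter on low counts, which asked for a count of about 10, and the lowest count of any of them in any library was 161.

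Among the proteases with a known site or process, asp-1, the intestinal protease, stood at 729.7 and 922 CPM in N2 mock and at 4177 and 4222 CPM in N2 RNAi. Both RNAi libraries were far above both mock libraries, and asp-1 rose by a log2 change of 2.35 (SE 0.17, edgeR adjusted p = 5.41e-06). The necrosis protease asp-3 stood at 669 and 889 CPM in mock and at 6112 and 6899 CPM in RNAi. The groups did not overlap, and asp-3 rose by 3.06 on the log2 scale (SE 0.20, edgeR adjusted p = 2.24e-06). The other necrosis protease, asp-4, a cathepsin D-like enzyme, went the other way, from 357 and 353 CPM in mock to 190.2 and 159 CPM in RNAi. Both RNAi libraries were below both mock libraries, with a log2 change of -1.02 (SE 0.14, edgeR adjusted p = 0.000848). A stretch of 33 bases of asp-4 overlaps R12H7.4 on the other strand, and reads of either gene could be counted for the other.

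The same pattern of higher RNAi libraries held for asp-2, asp-5 and asp-6, predicted aspartyl proteases. For asp-2 the levels were 544 and 515 CPM in mock and 2739 and 3164 CPM in RNAi, and the log2 rise was 2.48 (SE 0.15, edgeR adjusted p = 1.82e-06). A stretch of 74 bases of asp-2 overlaps inx-10 on the other strand in WBcel235. The gene model counted for asp-2 was larger, and its overlap with other genes is not known. The levels and change of asp-2 could therefore include reads of other genes. For asp-6 the levels were 511 and 703 CPM in mock and 4109 and 4339 CPM in RNAi, a log2 rise of 2.80 (SE 0.18, edgeR adjusted p = 2.56e-06). For asp-5 they were 370.4 and 408 CPM in mock and 1502 and 1706 CPM in RNAi, a log2 rise of 2.04 (SE 0.15, edgeR adjusted p = 6.61e-06). In each of these genes the lowest RNAi library was above the highest mock library. Paralogs can share reads, and how the authors counted reads that match several genes is not given in the sources used here. The split of reads between members is therefore uncertain.

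The largest change of the set was that of asp-12. Its counts were 309 and 268 in N2 mock and 57585 and 95919 in N2 RNAi, or 10.8 and 10.4 CPM against 2184 and 3520.2 CPM. The groups were far apart, although the RNAi libraries also differed from each other. The log2 change was 8.07 (SE 0.28, edgeR adjusted p = 2.5e-08), a fold change of 268 and the 8th largest rise of the 15321 genes tested.

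The genes asp-8 and asp-13 were expressed at lower levels. The level of asp-8 was 26.6 and 17.3 CPM in mock and 46.7 and 34.8 CPM in RNAi, without overlap, and its log2 rise was 0.89 (SE 0.20, edgeR adjusted p = 0.0253). This call was lost when the compared groups were fitted alone (adjusted p = 0.0683), in fits that left out N2 mock replicate 2 (0.169) or N2 RNAi replicate 1 (0.180). The level of asp-13 fell from 77.4 and 74.3 CPM in mock to 34.5 and 22.6 CPM in RNAi, with a log2 change of -1.41 (SE 0.18, edgeR adjusted p = 0.000409) and no overlap.

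In the glp-1 strain the same comparison was made with separate libraries. Of the 9 genes, 7 rose and 1 fell, where 2.70% of all genes were called, 1.89% higher and 0.816% lower. Without glp-1 RNAi replicate 2 the balance over all genes turned, with 387 called higher and 1104 lower, against 289 and 125 with all libraries. The median log2 change was 2.19 over the 9 genes and 0.00 over all genes. The level of asp-12 was 4.99 and 6.27 CPM in mock and 501 and 496 CPM in RNAi, a log2 rise of 6.47 (SE 0.27, edgeR adjusted p = 1.22e-07) or 88.6-fold. Its RNAi libraries were close to each other, and its rise ranked 8 of all genes tested, the same place as in N2.

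The abundant proteases rose in glp-1 as well. The level of asp-1 was 658 and 734 CPM in mock and 4259 and 3847 CPM in RNAi, a log2 rise of 2.54 (SE 0.17, edgeR adjusted p = 4.95e-06). For asp-3 the levels were 756 and 853 CPM in mock and 4869.7 and 3997 CPM in RNAi, a log2 rise of 2.46 (SE 0.19, edgeR adjusted p = 1.50e-05). For both genes the lowest RNAi library was several times the highest mock library. The level of asp-2 was 633 and 641 CPM in mock and 3054 and 2823 CPM in RNAi, and it rose by 2.21 on the log2 scale (SE 0.15, edgeR adjusted p = 5.95e-06). That of asp-6 was 769.5 and 836 CPM in mock and 3782 and 3541 CPM in RNAi, and it rose by 2.19 (SE 0.18, edgeR adjusted p = 2.15e-05). For asp-5 it was 491 and 543 CPM in mock and 1518 and 1445 CPM in RNAi, with a rise of 1.52 (SE 0.15, edgeR adjusted p = 9.82e-05). None of these 3 genes overlapped between the groups.

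The remaining genes moved less. The necrosis protease asp-4 had 385 CPM in each glp-1 mock library and 318 and 289.5 CPM in the RNAi libraries. Its libraries did not overlap, but it did not pass the test, with a log2 change of -0.34 (95% interval -0.65 to -0.03, edgeR adjusted p = 0.399). The level of asp-8 was 16.2 and 16.9 CPM in mock and 38.002 and 37.5 CPM in RNAi, a log2 rise of 1.19 (SE 0.20, edgeR adjusted p = 0.00677). That of asp-13 was 243 CPM in each mock library and 130.45 and 127 CPM in RNAi, a log2 change of -0.92 (SE 0.17, edgeR adjusted p = 0.0122). The groups did not overlap for either gene. The calls of asp-8 and asp-13 were lost without glp-1 mock replicate 1 (adjusted p = 0.0972 and 0.0984), without glp-1 mock replicate 2 (0.0693 and 0.0911) and without glp-1 RNAi replicate 1 (0.0541 and 0.0594).

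**Figure D2:**
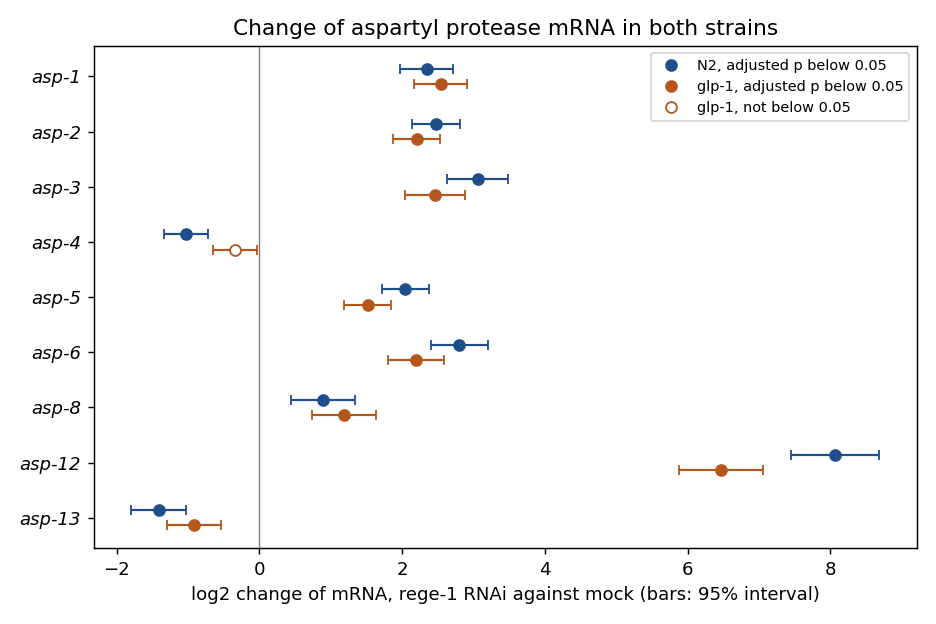
Log2 change of mRNA, rege-1 RNAi against mock, for the 9 genes in N2 and glp-1, with 95% intervals from edgeR. Filled points have an adjusted p below 0.05, and the open point is asp-4 in glp-1 (-0.34). The points of asp-12, 8.07 in N2 and 6.47 in glp-1, lie farthest to the right.

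The change under RNAi was then compared between the strains by the interaction term, N2 minus glp-1. Of the 9 genes 0 passed edgeR's test, where 0.0261% of all genes were called, and 5 had an unadjusted p below 0.05. DESeq2 called 1, asp-12. The log2 rise of asp-12 was larger in N2 by 1.60 (SE 0.31, 95% interval 0.92 to 2.28, edgeR adjusted p = 0.193), and DESeq2 gave 1.61 with an adjusted p of 0.000227. The other 4 were asp-4 at -0.68 (95% interval -1.12 to -0.25), asp-6 at 0.61 (0.08 to 1.14), asp-3 at 0.60 (0.04 to 1.16) and asp-5 at 0.53 (0.08 to 0.98), with edgeR adjusted p of 0.76 to 0.868. For asp-1 (-0.20, -0.69 to 0.30), asp-2 (0.27, -0.18 to 0.72), asp-8 (-0.30, -0.92 to 0.33) and asp-13 (-0.49, -1.03 to 0.04) the intervals included 0. An adjusted p above the threshold does not show that the strains responded alike. The number of all genes called in this comparison was 4, and it was 405 without glp-1 RNAi replicate 2.

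The 3 genes asp-6, asp-12 and asp-5 lie next to each other on chromosome V, at chr V:8267511-8268937 (minus strand), 8269210-8272056 (plus strand) and 8272385-8274044 (plus strand) in WBcel235. They span 6534 bases with gaps of 272 and 328 bases, and no other annotated gene lies among them. Here asp-6 and asp-12 are transcribed away from each other, and asp-12 and asp-5 run in the same direction. All 3 rose in both strains, but by unequal amounts. The ratio of RPKM of asp-12 to asp-6 was 0.0209 and 0.0146 in N2 mock and 0.523 and 0.799 in N2 RNAi. In glp-1 it was 0.00639 and 0.00738 under mock and 0.131 and 0.138 under RNAi. The ratio of asp-12 to asp-5 was 0.0291 and 0.0254 in N2 mock, below 1, and 1.45 and 2.05 in N2 RNAi, above 1. In glp-1 that ratio stayed below 1, at 0.0101 and 0.0115 under mock and 0.329 and 0.341 under RNAi. The ratio of asp-6 to asp-5 moved least, from 1.39 and 1.74 to 2.76 and 2.57 in N2, and from 1.58 and 1.56 to 2.52 and 2.48 in glp-1.

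**Figure D3:**
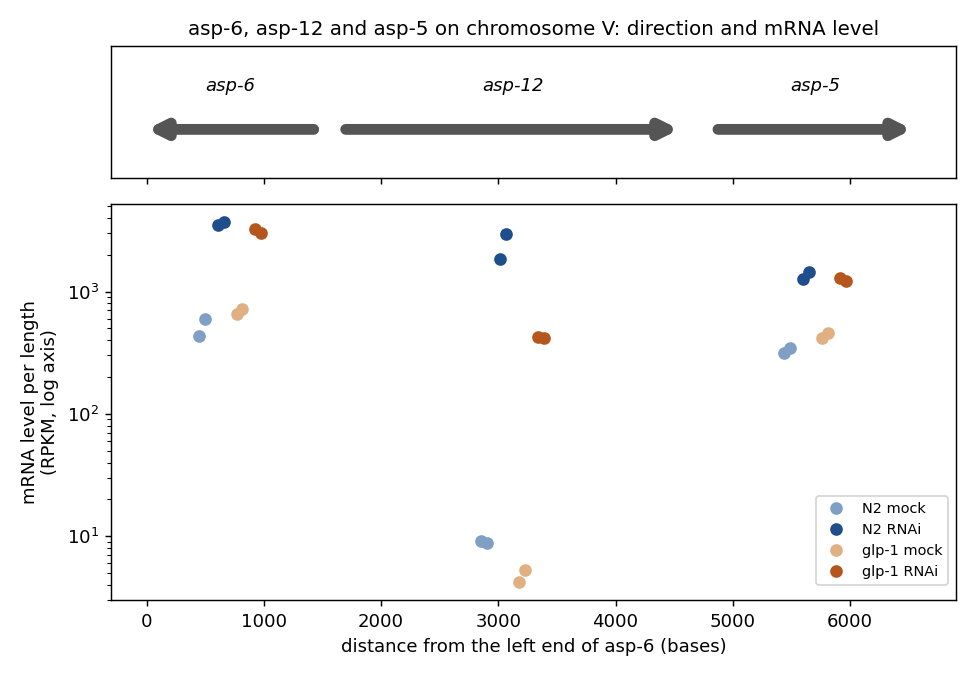
Top, the neighbouring genes asp-6, asp-12 and asp-5 on chromosome V with their direction of transcription. Bottom, the RPKM of each gene in the 8 libraries on a log axis, placed around the middle of its gene. The asp-12 points lie far below its neighbours under mock and between them in N2 RNAi.

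The other genes of the set lie apart from this group. Also on chromosome V are asp-8 (chr V:3024549-3027931, plus strand), asp-13 (8641602-8643193, minus strand), asp-2 (9203077-9204734, plus strand) and asp-1 (19049562-19050752, minus strand). On chromosome X are asp-3 (chr X:6791064-6792709, plus strand) and asp-4 (13218985-13221462, minus strand). All are annotated as protein-coding. The gene asp-1 has a single exon, and asp-13 has 7.

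Summed over the 9 genes, aspartyl protease mRNA made up 3296 and 3891 CPM in N2 mock and 21095 and 24067 CPM in N2 RNAi. In glp-1 the sums were 3957 and 4258 CPM under mock and 18471 and 16603 CPM under RNAi. The RNAi libraries were above the mock libraries of both strains, and the means stood in a ratio of 6.28 in N2 and 4.27 in glp-1. The make-up of the sum moved too. The share of asp-12 was 0.328 and 0.268% in N2 mock and 10.4 and 14.6% in N2 RNAi, and in glp-1 it was 0.126 and 0.147% under mock and 2.71 and 2.98% under RNAi. The share of asp-4 was 10.8 and 9.06% in N2 mock and 0.902 and 0.660% in N2 RNAi, so that it went from 1 of the main components to a minor one. In glp-1 the share of asp-4 was 9.73 and 9.04% under mock and 1.72 and 1.74% under RNAi. The gene with the highest CPM was asp-1 in both N2 mock libraries and asp-3 in all 4 RNAi libraries.

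**Figure D4:**
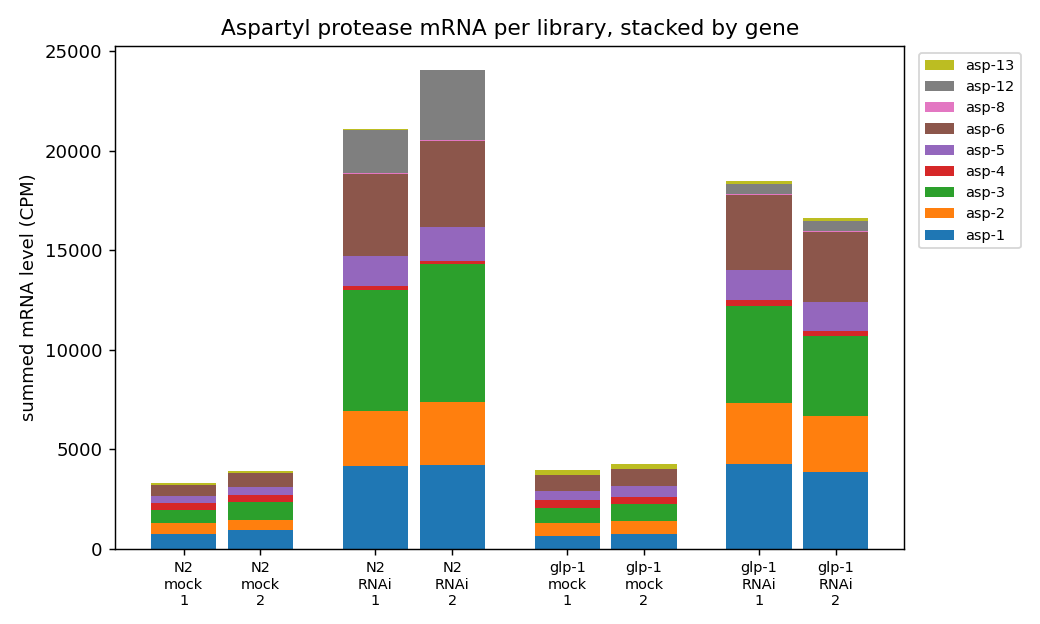
Summed mRNA level of the 9 genes in each library in CPM, stacked by gene. The mock libraries reach 3296 to 4258 CPM and the RNAi libraries 16603 to 24067 CPM, with asp-12 (grey) a visible part of the N2 RNAi bars.

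The strains were also compared directly, with the same libraries as above. Under mock, the 2 genes of the set that passed were asp-13, higher in glp-1, and asp-12, lower in glp-1, where 9.73% of all genes were called, 6.49% higher and 3.24% lower. The log2 difference of asp-13, glp-1 against N2, was 1.68 (SE 0.17, edgeR adjusted p = 0.000103), from the levels of 77.4 and 74.3 CPM in N2 and 243 CPM in each glp-1 library given above. That of asp-12 was -0.92 (SE 0.23, edgeR adjusted p = 0.0307). The call of asp-12 was lost without N2 mock replicate 1 (adjusted p = 0.138), N2 mock replicate 2 (0.0983), glp-1 mock replicate 1 (0.272) or glp-1 mock replicate 2 (0.0937). The other 7 genes had log2 differences between -0.41 and 0.41 and did not pass, although asp-5 (0.41, edgeR adjusted p = 0.101) passed in 4 of 15 alternative fits.

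Under RNAi, 18.1% of all genes were called between the strains (10.6% higher and 7.54% lower in glp-1), and 3 of the 9 genes, 2 higher and 1 lower. The log2 difference of asp-12 was -2.52 (SE 0.22, edgeR adjusted p = 2.93e-05), with 2184 and 3520.2 CPM in N2 against 501 and 496 CPM in glp-1. That of asp-13 was 2.17 (SE 0.18, edgeR adjusted p = 2.12e-05), in the same direction as under mock. The necrosis protease asp-4 was higher in glp-1 by 0.80 (SE 0.14, edgeR adjusted p = 0.00479), a call lost without N2 RNAi replicate 2 (adjusted p = 0.0759). The other necrosis protease, asp-3, was at -0.55 (SE 0.18, edgeR adjusted p = 0.0552), just outside the threshold, which it passed in 7 of 15 alternative fits. Some markers of other tissues were also called between the strains. Of 82 tested markers of 6 tissues other than the intestine, 4 were higher and 8 lower in glp-1 under mock. Over all genes, 6.49% were called higher and 3.24% lower there. Under RNAi, 9 of the 82 were higher and 14 lower, where 10.6% and 7.54% of all genes were called. Under mock, 4 of 22 germline markers were lower, with glh-1, which encodes a germ granule helicase, at -1.09 on the log2 scale. Of 10 hypodermis markers 3 were lower, with the collagen gene lon-3 at -2.97, and of 10 body wall muscle markers 1 was lower. Of 13 neuron markers 2 were higher (rab-3 0.93 and egl-21 0.64), as were 2 of 17 spermatogenesis markers (gsp-4 0.89 and spe-41 0.67). The 12 calls over these lists under mock were 7 without N2 mock replicate 1 or N2 mock replicate 2, 5 without glp-1 mock replicate 1 and 4 without glp-1 mock replicate 2. The 23 calls under RNAi were 3 without N2 RNAi replicate 2, 10 without either glp-1 mock library and 12 without glp-1 RNAi replicate 1. The part of tissue content in the strain differences of asp genes was not tested.

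Of the 8 asp genes outside the set, 2 passed the filter on low counts, asp-14 and asp-17. The level of asp-17 was 4.06 and 3.69 CPM in N2 mock and 15.4 and 10.4 CPM in N2 RNAi, a log2 rise of 1.73 (SE 0.22, edgeR adjusted p = 0.000418). In glp-1 it was 15.3 and 12.8 CPM in mock and 49.9 and 42.1 CPM in RNAi, a rise of 1.71 (SE 0.20, edgeR adjusted p = 0.000406). This gene was higher in glp-1 than in N2 under mock, by 1.86 on the log2 scale (SE 0.22, edgeR adjusted p = 0.000251), and under RNAi by 1.84 (SE 0.20, edgeR adjusted p = 0.000164). The level of asp-14 was 64.1 and 103 CPM in N2 mock and 245 and 237 CPM in N2 RNAi, a log2 rise of 1.53 (SE 0.20, edgeR adjusted p = 0.000487). In glp-1 it was 47.1 and 50.2 CPM in mock and 109 and 93.7 CPM in RNAi, a rise of 1.06 (SE 0.20, edgeR adjusted p = 0.0115). That last call was lost without glp-1 mock replicate 1 (adjusted p = 0.161), glp-1 mock replicate 2 (0.100) or glp-1 RNAi replicate 1 (0.177). In contrast to asp-17, asp-14 was lower in glp-1 than in N2, at -0.78 under mock (SE 0.19, edgeR adjusted p = 0.0294) and -1.25 under RNAi (SE 0.19, edgeR adjusted p = 0.00224). The call under mock was lost with library totals alone (adjusted p = 0.0582) and without N2 mock replicate 2 (0.151), glp-1 mock replicate 1 (0.224) or glp-1 mock replicate 2 (0.158). The remaining 6, asp-7, asp-9, asp-15, asp-16, asp-18 and asp-19, had counts of 0 to 7 in every library.

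Genes that act beside aspartyl proteases were examined by lists. Over all genes tested, 3.13% were called higher and 1.66% lower in N2, and 1.89% higher and 0.816% lower in glp-1. Of 10 cysteine cathepsins tested, proteases of the same compartments with another active site, 3 rose and 2 fell in N2, with a median log2 change of 0.17. The genes cpr-3 (2.65, SE 0.17), cpr-4 (2.15, SE 0.18) and cpr-1 (1.21, SE 0.16) rose, and cpz-1 (-1.43, SE 0.15), a cathepsin Z gene, fell. In glp-1 3 rose and 0 fell, with cpr-3 at 2.23, cpr-4 at 2.01 and cpr-1 at 1.74, while cpz-1 was at -0.56 (SE 0.14, edgeR adjusted p = 0.0735). In glp-1 6 of the 10 had an unadjusted p below 0.05 and DESeq2 called 5, and 5 were called without glp-1 RNAi replicate 2. Beside the 9 aspartyl proteases, with medians of 2.35 and 2.19, the medians of the cathepsins were 0.17 in N2 and 0.25 in glp-1.

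Of 29 lysosome proteins tested, 7 rose and 1 fell in N2, and 6 rose and 2 fell in glp-1. Their medians were 0.21 and -0.02. The lipase gene lipl-1 rose by 4.13 (SE 0.17) in N2 and 5.32 (SE 0.19) in glp-1. The glucocerebrosidase gene gba-1 rose by 2.77 (SE 0.14) and 2.58 (SE 0.14), and cln-3.1, a homolog of a Batten disease gene, by 2.18 (SE 0.14) and 2.38 (SE 0.14). The acid DNase gene nuc-1 fell in N2 by 1.71 (SE 0.14) on the log2 scale. Over all genes tested the medians were -0.01 and 0.00, with 4.79% called in N2 and 2.70% in glp-1.

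Of 21 proton pump subunits, 5 rose in N2 and 4 in glp-1, and 0 fell in either, with medians of 0.46 and 0.43. Among all genes, 3.13% were called higher in N2 and 1.89% in glp-1. The subunit gene vha-6, used in the intestine, led both lists with rises of 1.34 (SE 0.14) in N2 and 1.11 (SE 0.14) in glp-1. These counts depended on single libraries. In N2 the count of calls was 1 without N2 mock replicate 1, N2 RNAi replicate 1, N2 RNAi replicate 2 or glp-1 mock replicate 2, it was 2 without glp-1 mock replicate 1, and it was 12 without either glp-1 RNAi library. In glp-1 it was 1 without either N2 RNAi library or either glp-1 mock library, 2 without glp-1 RNAi replicate 1 and 14 without glp-1 RNAi replicate 2. DESeq2 called 8 in N2 and 5 in glp-1. Of 9 genes of necrotic cell death, 1 rose in N2, the proton pump gene vha-12 (0.79, SE 0.18), and 0 changed in glp-1, where 2 had an unadjusted p below 0.05 and DESeq2 called 1. The vha-12 call was lost without N2 mock replicate 1, N2 RNAi replicate 1, N2 RNAi replicate 2 or glp-1 mock replicate 2, where the count for this list was 0. It was 2 without N2 mock replicate 2, and in glp-1 it was 3 without glp-1 RNAi replicate 2.

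Some markers of the intestine were called beside the asp genes. Of 17 intestine markers, 5 rose in N2 and 4 in glp-1, and 0 fell in either, with medians of 0.35 and 0.24. The shares of all genes called higher were 3.13% in N2 and 1.89% in glp-1. In N2 12 of the markers did not pass, and in glp-1 13. Those with the lowest p in both strains were vha-6, the peptide transporter gene pept-1, cpr-1 and the microvillar actin gene act-5, of which vha-6 and cpr-1 are also in the lists above. The N2 count was 8 without either glp-1 RNAi library, and the glp-1 count was 2 without either glp-1 mock library. The 17 markers summed to 2133 to 2143 CPM in N2 mock and 3719 to 3872 CPM in N2 RNAi, and to 1989 to 2078 CPM in glp-1 mock and 3226 to 3341 CPM in glp-1 RNAi, with 0 markers at a count of 0. In RNA of whole animals, fewer cells of a type and less RNA per cell cannot be told apart, and the part of intestinal content in the changes of asp genes was not tested.

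Markers of other tissues did not pass the test under RNAi. Of 82 tested markers in 6 lists (germline, spermatogenesis, body wall muscle, hypodermis, neurons and pharynx), edgeR called 0 in N2 and 0 in glp-1. The shares over all genes were 4.79% and 2.70%. Of the 82 markers, 17 in N2 and 3 in glp-1 had an unadjusted p below 0.05, and DESeq2 called 1 in each strain. The edgeR count was 2 in N2 without N2 mock replicate 1, 1 in N2 without N2 RNAi replicate 2 and 3 in glp-1 without glp-1 RNAi replicate 2. In N2 the median log2 change was 0.47 over 10 pharynx markers and 0.45 over 10 hypodermis markers, above the 0.35 of the intestine markers, and it was 0.07 for germline, 0.02 for spermatogenesis, 0.09 for body wall muscle and -0.01 for neurons. In glp-1 the medians were 0.18, 0.13, 0.06, 0.08, 0.07 and 0.10 in the same order, against 0.24 for the intestine. The 22 germline markers summed to 6543 to 6771 CPM in N2 RNAi and to 4919 to 5023 CPM in glp-1 RNAi.

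Intron counts, which can come from unspliced RNA, were too few for most asp genes. The gene asp-1 has no counted intron, and 3 of the 9 genes, asp-4, asp-5 and asp-6, passed the filter. For asp-5 the intron counts were 9 and 11 in N2 mock, 26 and 39 in N2 RNAi, 3 and 10 in glp-1 mock and 34 and 29 in glp-1 RNAi. Both RNAi groups were above their mock groups without overlap. The log2 change of asp-5 introns was 1.67 (SE 0.49, edgeR adjusted p = 0.154) in N2 and 2.38 (SE 0.52, edgeR adjusted p = 0.0297) in glp-1. The call in glp-1 was lost with DESeq2 (2.37, adjusted p = 0.119) and without any 1 of the 4 glp-1 libraries. The change was 1.69 (adjusted p = 0.904) without glp-1 mock replicate 1 and 3.51 (0.0550) without glp-1 mock replicate 2. It was 2.19 (0.270) without glp-1 RNAi replicate 1 and 2.52 (0.114) without glp-1 RNAi replicate 2.

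The intron counts of asp-6 were 3 and 3 in N2 mock, 11 and 15 in N2 RNAi, 9 and 5 in glp-1 mock and 13 and 17 in glp-1 RNAi. They were higher under RNAi without overlap. All 4 mock counts were below the filter's minimum count of 10, and all RNAi counts were above it. The introns of asp-6 thus passed the filter only through the groups where they were high. Their lack of overlap was therefore partly set by the filter. The log2 changes were 2.06 (SE 0.67, edgeR adjusted p = 0.255) in N2 and 1.22 (SE 0.57, edgeR adjusted p = 0.719) in glp-1, and did not pass the test. The intron counts of asp-4 were 22 and 25 in N2 mock, 15 and 21 in N2 RNAi, 38 and 55 in glp-1 mock and 46 and 32 in glp-1 RNAi, with CPM that overlapped in both strains and log2 changes of -0.41 (SE 0.42) and -0.12 (SE 0.36). Introns of asp-12 did not pass the filter. They had 0 counts in all 4 mock libraries, 8 and 3 in N2 RNAi, and 0 and 2 in glp-1 RNAi. Other genes below the filter are given in the order N2 mock, N2 RNAi, glp-1 mock and glp-1 RNAi. For asp-2 the counts were 2 and 0, 9 and 8, 3 and 9, and 10 and 18. For asp-3 they were 0 and 0, 1 and 1, 0 and 0, and 2 and 4. For asp-8 they were 1 and 2, 0 and 0, 0 and 3, and 2 and 0. For asp-13 they were 1 and 0, 7 and 0, 7 and 4, and 3 and 4. In all, 0 of 3 genes were called in N2 by edgeR (2 at an unadjusted p below 0.05, 0 by DESeq2) and 1 in glp-1, where 1.07% and 0.694% of all 5042 genes tested were called.

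Whether mRNA changed beyond introns was tested in a joint model of both kinds of count. For these 3 genes 0 passed in N2 and 0 in glp-1 by edgeR, and 0 had an unadjusted p below 0.05, where 0.0400% and 0% of all 4999 genes tested were called. The log2 change of mRNA beyond introns was 0.38 (95% interval -0.59 to 1.35) for asp-5, 0.73 (-0.69 to 2.15) for asp-6 and -0.62 (-1.55 to 0.31) for asp-4 in N2. In glp-1 it was -0.90 (-1.95 to 0.15) for asp-5, 0.95 (-0.14 to 2.05) for asp-6 and -0.22 (-1.005 to 0.56) for asp-4. With each library left out, the value of asp-5 in glp-1 ran from -1.98 without glp-1 mock replicate 2 to -0.26 without glp-1 mock replicate 1. At these intron counts the intervals spanned changes of more than 1 log2 unit in width for every gene. A difference between mRNA and introns was not detected for these genes, which does not show that there was none.

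As a description, the genes most like asp-12 in log2 CPM over the 8 libraries were gale-1, dsc-4 and C14C11.4 (Pearson r = 0.997, 0.996 and 0.995), among the 9629 genes whose mean reached 5 CPM. For asp-1 they were lys-4, a lysozyme gene, cln-3.1 and scav-1 (0.998, 0.996 and 0.995). For asp-2 they were vha-6, clec-62 and pcyt-2.1 (0.999, 0.999 and 0.998). For asp-4, which fell in N2, they were dhs-14, fah-1 and bckd-1B (0.982, 0.980 and 0.980). All these values share the same 8 libraries in 4 groups and so follow the group differences already given.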

How the data were processed

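Per the labels' protocols, libraries were made from total RNA of whole animals by ScriptSeq v2. The deposited tables give unnormalized counts of mRNA and of introns for each gene, and the authors added the length counted. Coding lengths were multiples of 3 for 96.6% of genes. Not given in the sources used here are the aligner, genome build, annotation, counting tool, strand use and treatment of reads that match several genes. The authors' log2 tables were not used here. Positions come from the Ensembl release 115 annotation of WBcel235. Groups follow the sample titles.

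Counts were tested with edgeR 4.0.16 in R 4.3.3: filterByExpr with a minimum count of 10, TMM scaling, robust quasi-likelihood fits of the 4 groups together (4 residual degrees of freedom), two-sided tests and Benjamini-Hochberg adjustment over all genes tested, with a threshold of 0.05. SE is the log2 change divided by the root of F. The joint model of mRNA and introns had the library as a block. Alternatives were DESeq2 1.42.0, other size factors, library totals alone, no filter, compared groups only, a length trend removed, a replicate block, no robust estimation in the joint model and each library left out. Scripts were tested on simulated data. Replicates differed by more than counting error in every group. All genes of the set that were found are named in the mRNA comparisons of RNAi with mock and in their difference between strains. In the direct strain comparisons, those called in the main fit or in some alternative fits are named. In each list at most 4 genes are named, those of lowest p. The members and lists were chosen with earlier results of these data known. Promoter and protein sequences were not used here.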

Additional observations from a re-analysis of the deposited data

How the results depend on the processing

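The counts of asp genes called under RNAi were 9 in N2 (8 to 9 with each library left out in turn) and 8 in glp-1 (6 to 8). For the difference between strains the count was 0 (0 with each library left out) and 1 with DESeq2. For glp-1 against N2 it was 2 under mock (1 to 3) and 3 under RNAi (2 to 4). For introns in glp-1 it was 1, but 0 with DESeq2 and 0 to 1 with each library left out, and the cause was not tested. With all libraries, the shares of all genes called were 4.79% in N2, 2.70% in glp-1 and 0.0261% for the difference between strains. For glp-1 against N2 they were 9.73% under mock and 18.1% under RNAi. For introns in glp-1 the share was 0.694%. Log2 differences near 0 turned sign. For glp-1 against N2 under RNAi, library totals alone gave 0.11 for asp-1, 0.16 for asp-2, 0.047 for asp-5 and 0.049 for asp-8, and removing the length trend gave 0.13 for asp-2. With each library left out, that comparison ran from -0.13 to 0.024 for asp-1, -0.11 to 0.10 for asp-2 and -0.31 to 0.11 for asp-8. The mock comparison ran from -0.15 to 0.26 for asp-3, and the difference between strains from -0.57 to 0.049 for asp-8. In glp-1, asp-4 ran from -0.48 to 0.22 for introns and from -0.56 to 0.11 for mRNA beyond introns.

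With each library left out, calls over all genes ranged from 423 to 816 in N2 (734 with all), 188 to 1491 in glp-1 (414), 474 to 2200 (1491) between strains under mock and 528 to 4009 (2774) under RNAi. The compared groups alone gave 2447 and 872 in these 2 strain comparisons. The difference between strains gave 4 genes, 11 without a filter, 30 with DESeq2 and 12 with the length trend removed. For introns, N2 gave 54 (31 with DESeq2, 28 with library totals alone or the compared groups alone) and glp-1 gave 35 (21 with DESeq2, 59 without a filter, 53 with the compared groups alone, 8 without glp-1 mock replicate 2). Nothing in the labels ties equal replicate numbers to a shared source, and correlations of replicate deviations between groups ran from -0.11 to 0.17 for mRNA and from -0.09 to 0.25 for introns, so no pairing was assumed. With a replicate block, 760 genes were called in N2 and 426 in glp-1, 8 for their difference, the counts of asp genes stayed within 1.5 times, and asp-3 passed between strains under RNAi (adjusted p = 0.0462). Low intron counts limit what can be seen of unspliced asp RNA.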
